A study of Mus musculus with 18 samples.

Results

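Liver-only BMAL1 peaks at gene boundaries are liver binding sites that shared no base with a kidney or heart peak and were centred no more than 1 kb from an end of an annotated RefSeq gene of any class. They numbered 709 of the 4813 peaks in the liver list (14.7%, exact 95% interval 13.7 to 15.8%). They made up 22.2% of the 3199 liver-only peaks and 45.3% of the 1564 liver peaks at gene boundaries. In the whole liver list, 66.5% of peaks were liver-only and 32.5% lay at a gene boundary. The peaks were chosen by both properties, their absence from the other 2 lists and their position, so nothing is read from these shares.

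Binding of the clock factor BMAL1 was measured by ChIP-seq, which sequences the DNA precipitated with a protein, with 3 ChIP and 3 input libraries from each of liver, kidney and heart. The mice were wild-type C57BL/6 animals of 3 to 6 months, held in cycles of 12 h light and 12 h dark with free access to food and water. All tissues came from the same animals and were taken at ZT 6, the middle of the light phase. For each tissue the authors pooled the 6 libraries and deposited 1 peak list. The kidney list held 4034 peaks and the heart list 2519. No value exists per animal, so every interval below is an exact 95% interval that treats peaks or genes as the units and covers counting error only. Read depth is unknown, and a site that one list missed counts as absent there. The heart input libraries carry a source label naming kidney, although their titles and tissue labels say heart. Without the heart list, 772 peaks met the rule.

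BMAL1 pairs with CLOCK, and the pair binds E-boxes, short palindromic DNA elements, to activate the Per and Cry genes whose products then inhibit it. The same pair binds many genes outside this loop. In liver these include genes of glucose, lipid and amino acid metabolism, and binding occurs beside factors that set hepatocyte identity, such as HNF, FOXA and C/EBP proteins.

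The DNA under a peak was known only where it fell in RefSeq promoter windows of GRCm38.p6, which run from 250 bases before to 50 bases after a gene start. The 12 stretches shown are those of highest peak score, with at most 4 that lack an E-box, and total 2301 bases. Each is written 5′ to 3′ on the forward strand of GRCm38, and capitals mark the canonical E-box CACGTG. The first 8 contain an E-box. Further peaks without one, such as those of Ccdc134 (score 95) and Hilpda (82), were passed over because of the limit of 4. High-scoring peaks with little or no sequence in the windows, such as that of Slc7a2, could not be shown. The number with an E-box is therefore no share among high-scoring peaks.
Gm38958 and Phospho1, chr11:95824250-95824360: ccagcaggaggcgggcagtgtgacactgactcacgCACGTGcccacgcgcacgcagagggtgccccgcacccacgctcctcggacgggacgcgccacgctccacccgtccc
Mfsd1, chr3:67582585-67582817: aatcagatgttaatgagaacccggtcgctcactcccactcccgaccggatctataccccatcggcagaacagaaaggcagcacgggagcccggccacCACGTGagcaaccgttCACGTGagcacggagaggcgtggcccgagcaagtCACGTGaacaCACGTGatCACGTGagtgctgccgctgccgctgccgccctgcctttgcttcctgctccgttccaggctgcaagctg
Pik3ap1, chr19:41385105-41385346: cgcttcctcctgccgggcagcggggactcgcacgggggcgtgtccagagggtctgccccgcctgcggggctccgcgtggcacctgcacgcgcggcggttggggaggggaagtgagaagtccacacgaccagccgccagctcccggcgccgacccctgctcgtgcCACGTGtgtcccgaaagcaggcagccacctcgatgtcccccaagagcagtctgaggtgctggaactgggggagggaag
Mccc2, chr13:100015590-100015815: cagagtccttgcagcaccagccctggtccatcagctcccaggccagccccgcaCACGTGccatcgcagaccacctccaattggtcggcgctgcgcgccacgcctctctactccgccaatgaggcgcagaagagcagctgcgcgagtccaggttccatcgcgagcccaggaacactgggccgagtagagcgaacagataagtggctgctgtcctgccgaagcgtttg
Onecut1, chr9:74861671-74861803: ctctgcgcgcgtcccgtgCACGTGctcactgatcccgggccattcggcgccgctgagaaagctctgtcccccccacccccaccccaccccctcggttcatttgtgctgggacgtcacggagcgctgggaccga
Exosc5 and Bckdha, chr7:25658990-25659202: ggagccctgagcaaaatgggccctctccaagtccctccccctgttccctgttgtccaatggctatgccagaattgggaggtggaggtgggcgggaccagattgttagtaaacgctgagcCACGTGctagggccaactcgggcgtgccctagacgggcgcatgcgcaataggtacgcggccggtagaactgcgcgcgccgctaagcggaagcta
Sc5d, chr9:42264260-42264501: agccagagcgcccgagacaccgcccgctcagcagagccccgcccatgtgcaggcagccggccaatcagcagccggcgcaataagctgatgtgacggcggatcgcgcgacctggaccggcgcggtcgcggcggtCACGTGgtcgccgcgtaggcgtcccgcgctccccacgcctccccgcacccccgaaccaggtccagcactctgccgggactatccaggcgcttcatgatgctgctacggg
Comtd1, chr14:21848861-21849012: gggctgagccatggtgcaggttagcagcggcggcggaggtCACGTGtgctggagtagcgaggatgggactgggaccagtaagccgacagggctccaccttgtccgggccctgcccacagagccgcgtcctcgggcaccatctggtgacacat

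The peak at Mfsd1, a lysosomal membrane transporter gene, held 5 E-boxes in 233 of its 242 bases. Their centres lay at -21, -5, 29, 39 and 47 bp from the peak centre, separated by 10, 28, 4 and 2 bases. The E-box lay 1 bp from the peak centre at Exosc5 and Bckdha, 9 bp from it at Onecut1, 12 bp at Comtd1 and 15 bp at Sc5d. It lay farther out at Pik3ap1 (46 bp), at Gm38958 and Phospho1 (48 bp) and at Mccc2 (-49 bp). The other 4 stretches hold no E-box, which says nothing of the parts of those peaks outside the windows.
Inf2, chr12:112588517-112588673: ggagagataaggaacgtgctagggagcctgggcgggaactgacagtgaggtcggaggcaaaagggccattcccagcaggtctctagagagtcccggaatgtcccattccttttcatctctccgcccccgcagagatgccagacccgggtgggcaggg
Abcf2, chr5:24577297-24577532: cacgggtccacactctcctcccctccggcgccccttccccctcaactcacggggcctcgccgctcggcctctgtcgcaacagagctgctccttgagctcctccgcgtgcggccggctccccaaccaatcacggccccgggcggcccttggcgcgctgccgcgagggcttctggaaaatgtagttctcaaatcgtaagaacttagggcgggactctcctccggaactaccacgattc
Ccdc38 and Amdhd1, chr10:93540457-93540681: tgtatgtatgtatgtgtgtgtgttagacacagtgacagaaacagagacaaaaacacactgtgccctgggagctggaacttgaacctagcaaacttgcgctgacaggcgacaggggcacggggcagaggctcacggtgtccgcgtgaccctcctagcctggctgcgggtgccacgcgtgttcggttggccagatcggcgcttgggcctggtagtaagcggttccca
Lcp1 and Lrrc63, chr14:75131042-75131172: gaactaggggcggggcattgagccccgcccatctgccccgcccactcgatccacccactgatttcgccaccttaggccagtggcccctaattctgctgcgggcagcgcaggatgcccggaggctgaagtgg

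Of the 709 peaks, 153 had their central 100 bases inside promoter windows, and 24.8% of these contained the canonical E-box (38 peaks, 18.2 to 32.5%). Among liver boundary peaks shared with kidney or heart the share was 46.6% (143 of 307). It was 22.5% in kidney-only boundary peaks (69 of 307) and 18.1% in heart-only boundary peaks (19 of 105). Pieces of 100 bases from all promoter windows contained it in 2.41% of cases. The interval of the liver-only peaks therefore lay below the shared share and included the kidney-only share, with the heart-only share just under its lower bound. All 4 groups lay above the promoter pieces. Their median GC content was 66.0% in liver-only, 70.0% in shared, 70.0% in kidney-only and 72.0% in heart-only peaks, against 53.0% in promoter pieces, and its part in the motif shares was not tested.

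**Figure D1:**
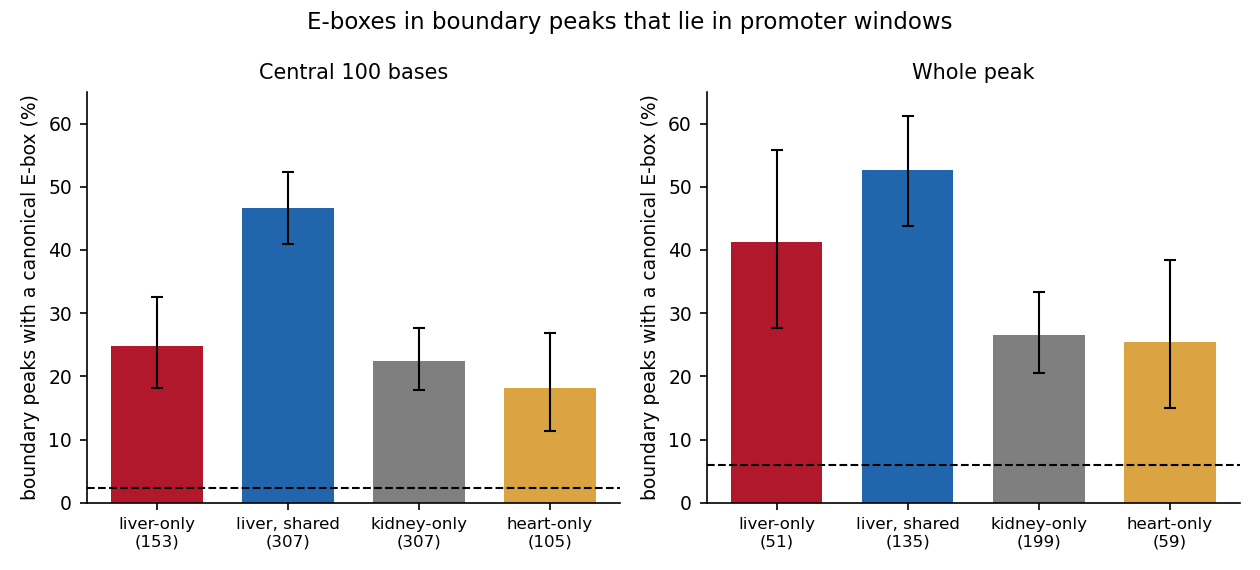
Percent of boundary peaks with a canonical E-box on either strand, in the central 100 bases (left) and in the whole peak (right), with exact 95% intervals and the number of peaks in parentheses; the dashed line is the share in promoter pieces of 100 bases (left) and 242 bases (right). Liver-only peaks stand at 24.8% and 41.2%, below shared liver peaks at 46.6% and 52.6%; whole peaks are shorter in kidney (188 bp) and heart (198 bp) than in liver (242 bp), so only the left panel compares equal lengths.

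Whole peaks could be read for 51 of the 709. An E-box was present in 21 of them (41.2%, 27.6 to 55.8%), against 71 of 135 shared boundary peaks (52.6%) and 5.98% of overlapping promoter pieces of 242 bases. In 19 of the 21 peaks the nearest E-box centre lay within 50 bp of the peak centre, and the median offset was 23 bp. In shared boundary peaks the median offset was 16 bp. The share in the central 100 bases was 35.3% in the 51 peaks read whole (18 peaks, 22.4 to 49.9%) and 19.6% in the other 102 (20 peaks, 12.4 to 28.6%). A peak can only be read whole when promoter windows, single or joined, cover all its 242 bases, so the 51 are not a sample of all positions.

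Peaks with an E-box had a somewhat higher median score, the whole number that the authors gave each peak and whose scale is not given in the sources used here. Among peaks read whole, the median score was 47 in the 21 with an E-box (18 to 110) and 36 in the 30 without (22 to 95). The ranges overlapped almost entirely. For central bases the medians were 46.5 in 38 peaks and 38 in 115. More than 1 E-box was found in 7 peaks, counting only the bases inside windows. Beside Mfsd1 these were Cdkl3, which encodes a cyclin-dependent kinase-like protein, with 3 E-boxes, and 1700015C15Rik, Dolk, Snrpa, Neurl2 and Commd8 with 2 each. Dolk encodes dolichol kinase and Snrpa a protein of the U1 splicing particle. E-box pairs with a spacer of 6 or 7 bases are a known CLOCK and BMAL1 arrangement. They occurred in 0 of 153 central stretches and 0 of 51 whole peaks, which allows a share of up to 2.38% and 6.98%. Promoter pieces of 100 bases held them in 0.00102% (spacer 6) and 0.00406% (spacer 7) of cases, so 0 could not be told from those shares.

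Other motifs were counted on both strands in the central 100 bases. The near E-box CACGTT occurred in 9 of 153 peaks (5.88%; 1.54% of promoter pieces). The general form CANNTG, which includes CACGTG, was found in 51.0% (35.4% of promoter pieces). The GC box GGGCGG, bound by SP and KLF factors, occurred in 41.2% of liver-only, 53.7% of shared, 51.8% of kidney-only and 51.4% of heart-only boundary peaks, and in 17.0% of promoter pieces. The interval of the liver-only peaks, 33.3 to 49.4%, lay below the other 3 shares. The NRF1 site occurred in 4.58% of liver-only, 10.4% of shared, 5.86% of kidney-only and 3.81% of heart-only boundary peaks, and in 1.57% of promoter pieces. NRF1 drives many mitochondrial and housekeeping genes.

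Motifs of liver factors were sparse in these promoter stretches and also in promoter pieces. The C/EBP form TTGCNNAA was found in 7 of 153 liver-only peaks (4.58%, 1.86 to 9.20%), 2 of 307 shared peaks (0.651%), 5 of 307 kidney-only peaks (1.63%) and 1 of 105 heart-only peaks (0.952%). Promoter pieces held it in 3.61% of cases, a value inside the liver-only interval. Read over whole liver peaks, it was present in 6 of 51 liver-only peaks (11.8%, 4.44 to 23.9%) and 1 of 135 shared ones (0.741%), with 8.90% of promoter pieces. The forkhead form TGTTTAC occurred in 2 of 153 central stretches (1.31%; 1.19% of promoter pieces) and the nuclear receptor half-site AGGTCA in 12 (7.84%; 5.62%). Over whole peaks the forkhead form was present in 4 of 51 liver-only (7.84%, 2.18 to 18.9%) and 5 of 135 shared peaks (3.70%). Promoter pieces of 242 bases held it in 2.98% of cases, a value inside the liver-only interval. The half-site was present in 7 of the 51 (13.7%; 13.4% of promoter pieces). HNF4 and HNF1 forms and a direct repeat of the half-site were found in 0 of 153, which allows a share of up to 2.38%. Promoter pieces of 100 bases held each of these forms in a share below that bound, so 0 could not be told from the promoter shares. None of these counts shows whether a factor was bound.

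Scores of the 709 peaks ran from 17 to 159 with a median of 36 (quartiles 26 and 51). The median was 31 in the 2490 liver-only peaks away from gene boundaries and 72 in the 855 shared boundary peaks. Sharing with another list was part of the selection and goes with the score, so these medians are a description only. A score of 100 or more was reached by 18 of the 709. Of the 503 liver peaks of rank 500 or better, 21 (4.17%) belonged to the group. The liver list was split into 5 score classes of similar size, 17 to 24, 25 to 33, 34 to 47, 48 to 72 and 73 to 389. From the lowest class to the highest, the group made up 14.5, 17.8, 19.7, 14.3 and 7.02% of peaks. Among liver-only peaks alone, the boundary share was 15.9% in the lowest class, 21.3% in the next and 26.4, 26.2 and 27.2% in the upper ones.

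**Figure D2:**
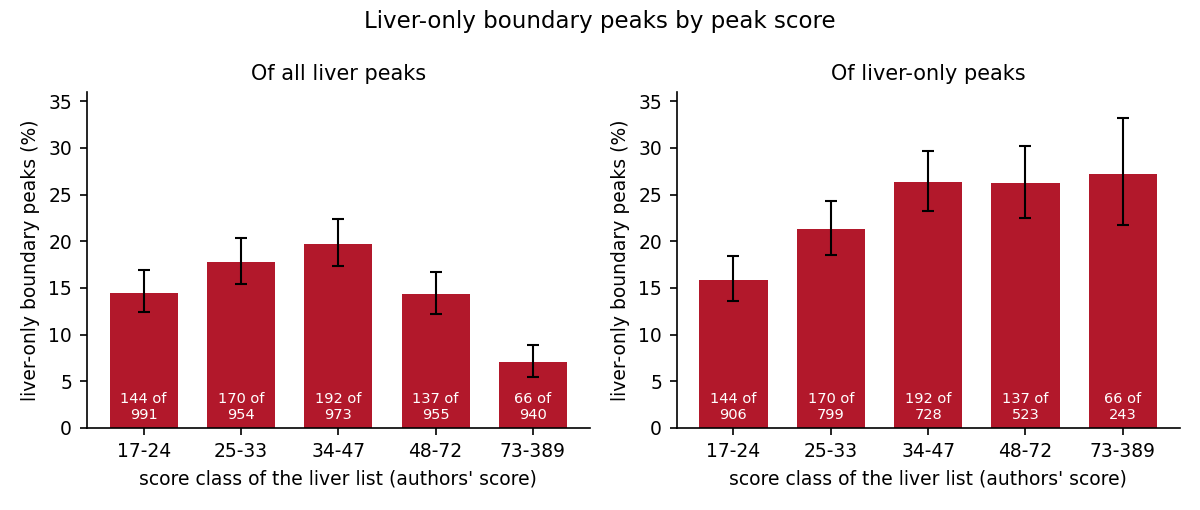
Percent of all liver peaks (left) and of liver-only peaks (right) that are liver-only boundary peaks, in 5 classes of the liver list by the authors' score, with exact 95% intervals and the counts in the bars. The left share is highest in the middle class at 19.7% and lowest in the top class at 7.02%, while the right share runs from 15.9% in the lowest class to 27.2% in the highest.

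The top score, 159 (rank 115 of the liver list), belonged to the peak at the divergent starts of Gm38958, a long non-coding RNA gene, and Phospho1, which encodes a phosphatase of phosphocholine and phosphoethanolamine. It was followed by Trim37, a ubiquitin ligase (157), Inf2, an actin-assembling formin (151), Slc7a2, a carrier of cationic amino acids (137), and Odc1, ornithine decarboxylase of polyamine synthesis (136). Naaa, which hydrolyses fatty acid ethanolamides, had 116 and Abhd11, a mitochondrial hydrolase, 115. Mfsd1 and the long non-coding RNA gene Gm41857 had 114 each. None of these peaks lay at a clock gene.

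The remaining peaks of the top 20 scored between 99 and 113. The peak at Ccdc38 and Amdhd1 had 111, and Amdhd1 encodes an enzyme of histidine breakdown. Abcf2, an ABC family protein without membrane spans, had 113, Pik3ap1, an adaptor of PI3-kinase, 110, and the peak at Clcn2, a chloride channel, and Polr2h, an RNA polymerase subunit, 109. L3hypdh, an enzyme of hydroxyproline breakdown, shared its peak with Jkamp at 104, and Lcp1, an actin-bundling plastin, shared one with Lrrc63 at 100. Gprc5c, an orphan receptor, and Vps37b, a subunit of the ESCRT-I sorting complex, had 99 each. The others were Mir6715 and F730035M05Rik at 111 each and Gm40345 at 100.

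Most of the 709 peaks lay at gene starts. Strand, and with it start or end, was known for the nearest gene end of 542 peaks, and the start was nearest in 454 of these (83.8%, 80.4 to 86.8%). The share was 94.3% in shared liver boundary peaks (641 of 680), 91.1% in kidney-only (636 of 698) and 89.6% in heart-only boundary peaks (335 of 374). All 3 values lay above the interval of the liver-only peaks. Thus 88 liver-only peaks had a gene's 3′ end as their nearest boundary, and 167 lay at a gene whose strand was not known here. The peaks at 3′ ends had a median score of 33.5 against 38 at starts, with overlapping quartiles (23.75 to 43.25 and 27 to 51.75).

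Liver-only peaks were also farther from the boundary than shared ones. The median distance from centre to nearest gene end was 244.5 bp, against 131.5 bp in shared, 143.5 bp in kidney-only and 221.5 bp in heart-only boundary peaks. Within 100 bp lay 27.1% of liver-only peaks, 41.9% of shared, 41.8% of kidney-only and 26.4% of heart-only boundary peaks. The median was 195.5 bp for liver-only peaks nearest to a start and 506.5 bp for those nearest to a 3′ end. At the limit of the rule, the peaks just inside were those of Sh3d19 (999.5 bp, score 33), 0610005C13Rik (983.5 bp, 80) and Usf2 (982.5 bp, 64). Just outside lay Epm2a (1003.5 bp, 38), Mrpl23 (1012.5 bp, 71) and D14Ertd670e (1015.5 bp, 18).

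Starts were located more closely with the promoter windows, some of which begin at another start than the gene's outer end. Of 454 peaks within 1 kb of such a start, which are not the same set as the 454 above, 230 were upstream and the rest downstream (50.7% upstream, 46.0 to 55.4%). The 100 bases just upstream held 18.1% of these peaks and the 100 bases just downstream 13.7%. Shared boundary peaks had 25.9% and 17.8% there. Farther downstream, from 100 to 1000 bp, lay 35.7% of liver-only peaks (31.3 to 40.3%) and 36.1% of heart-only peaks (31.0 to 41.5%). In that stretch lay 19.8% of shared peaks (16.8 to 23.1%) and 20.0% of kidney-only peaks (17.0 to 23.3%).

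**Figure D3:**
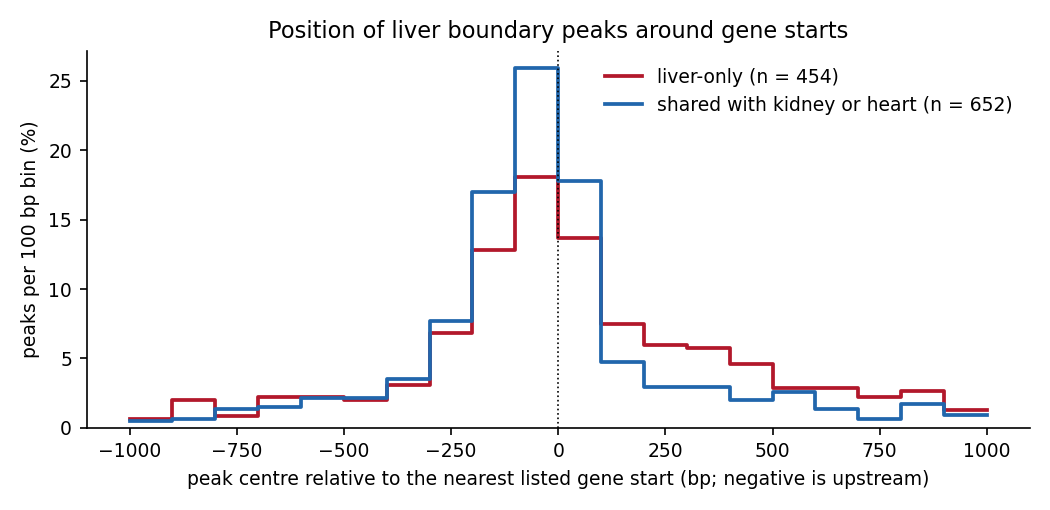
Percent of liver boundary peaks per 100 bp bin of the distance from the peak centre to the nearest listed gene start, for 454 liver-only and 652 shared peaks; negative distances are upstream. Both groups peak in the bin just upstream of the start, at 18.1% and 25.9%, and liver-only peaks exceed shared ones in each bin from 100 to 1000 bp downstream.

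The nearest end belonged to a protein-coding gene in 523 cases (73.8%, 70.4 to 77.0%) and to a long non-coding RNA gene in 158 (22.3%, 19.3 to 25.5%). Shared boundary peaks had 82.7% and 15.1%. The remainder were 13 pseudogenes, 2 transcribed pseudogenes, 7 microRNA, 3 tRNA, 2 snRNA and 1 snoRNA gene. The median score was 37 at protein-coding and 35 at long non-coding RNA genes. Most peaks lay near an end of only 1 gene. An end of exactly 1 gene was within 1 kb of 545 peaks, ends of 2 genes of 156, ends of 3 genes of 7, and ends of 6 genes of 1. That last peak, on chromosome 17 with a score of 26, lay among Frs3, Gm20517, Prickle4, Tomm6, Tomm6os and Usp49. Starts of divergent genes, seen only where both strands were known, lay within 1 kb of at least 52 peaks (7.33%). No comparison with other boundary peaks is given here for these gene counts. The members occurred on all chromosomes with liver peaks, from 9.77% of liver peaks on chromosome 2 (30 of 307) to 23.1% on chromosome X (9 of 39).

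In all, 866 genes had a liver-only peak at an end, 626 of them protein-coding, which is 2.86% of 21887 protein-coding genes. Those genes were not all free of binding in the other tissues. A kidney peak lay at an end of 68 of the 866 and a heart peak at an end of 41. Over all 49943 genes these numbers were 2252 and 1283. A kidney or heart peak lay inside the gene or within 10 kb for 249 of the 866, a count with no comparison over all genes here. A shared liver peak stood at an end of 26 of the 866, and of 1085 of all 49943 genes. The label liver-only thus belongs to the peak and not to the gene.

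Gene groups were compared by the share of their genes with a liver-only peak at an end, beside the 2.86% of all protein-coding genes. For shared liver, kidney-only and heart-only boundary peaks the same share of all protein-coding genes was 3.93, 3.90 and 2.16%. The groups were chosen with earlier results of these data known. Of 63 matched genes of amino acid breakdown and the urea cycle, 14 had one (22.2%, 12.7 to 34.5%), whereas 3 had a shared liver peak (4.76%), 2 a kidney-only peak (3.17%) and 1 a heart-only peak (1.59%), each near the share of all protein-coding genes. Enzymes of branched-chain amino acid breakdown were among them. Mccc2, a subunit of methylcrotonyl-CoA carboxylase of leucine breakdown, scored 82. Bckdha, the E1 alpha subunit of the branched-chain ketoacid dehydrogenase, scored 77, and its peak also lay at the start of Exosc5. Hibadh and Aldh6a1 of the valine pathway scored 45 and 46.

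Other amino acid genes with a peak acted on sulfur amino acids, histidine and transamination. Cth and Cbs, the enzymes that turn homocysteine into cysteine, scored 64 and 52, and Mat1a and Gnmt, which make and use S-adenosylmethionine, scored 24 and 37. Amdhd1 (111) and Uroc1 (36) are consecutive steps of histidine breakdown. The aspartate aminotransferases Got1 and Got2 scored 61 and 39, the tyrosine aminotransferase Tat 26 and the serine dehydratase-like gene Sdsl 32. The scores thus ran from a peak in the top 20 to peaks at or below the lower quartile of the group. The peak of Gnmt lay at its 3′ end, and among those with a known strand it was the only one of the 14 that did.

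Plasma proteins made by hepatocytes formed the next group, with 16 of 103 genes (15.5%, 9.15 to 24.0%). Shared liver peaks were found at 1 of these genes, kidney-only peaks at 2 and heart-only peaks at 1. Coagulation factor X gene F10 carried 3 peaks, at chr8:13036536-13036777 (score 54), chr8:13037667-13037908 (45) and chr8:13057365-13057606 (77). The first also lay at the 3′ end of its neighbour F7, the factor VII gene, which had a second peak at its start (chr8:13025525-13025766, 59). No kidney or heart peak lay in F7 or F10 or within 10 kb of them.

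Rbp4, the plasma retinol carrier, scored 46. Lower scores, from 40 to 19, were those of Ahsg, Serpina6, Fgg, Apoc1, Apoa5, C8b, Serpinc1, Vtn, Serpina10, C4b and Fga. These included 2 chains of fibrinogen and the antithrombin gene Serpinc1. Apoa5, which promotes clearance of plasma triglyceride, had an E-box 13 bp from its peak centre although its score was 28.

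Of 34 genes for transcription factors of the liver lineage, 5 had a liver-only peak (14.7%, 4.95 to 31.1%), 3 a shared one, 1 a kidney-only one and 0 a heart-only one. Onecut1, also known as HNF6, had peaks at chr9:74861562-74861803 (score 78) and chr9:74862253-74862494 (score 40), and the first held the E-box shown above. Nr0b2, the orphan nuclear receptor SHP that restrains bile acid synthesis, scored 72. Hhex scored 42 and Onecut2 19. With so few genes the interval was wide but lay above the share of all protein-coding genes.

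Genes of glucose and glycogen metabolism had a liver-only peak in 8 of 57 cases (14.0%, 6.26 to 25.8%) and a shared liver peak in 9 (15.8%), a kidney-only peak in 4 and a heart-only peak in 2. Pdk1, which inactivates pyruvate dehydrogenase, and the aldolase gene Aldoc scored 80 each, Galt of galactose metabolism 38 and the phosphoglucomutase gene Pgm1 35. G6pc, the glucose-6-phosphatase of liver, scored 27, and a kidney peak lay 2728 bp from it. At Pdk1 a kidney peak lay 846 bp away. Lipid, cholesterol and bile acid genes had a liver-only peak in 12 of 123 cases (9.76%, 5.14 to 16.4%) a shared one in 12, a kidney-only one in 6 and a heart-only one in 3. Sc5d of cholesterol synthesis scored 73, Plin2, a lipid droplet coat protein, 69, Elovl6, a fatty acid elongase, 54 and Acat1 of ketone body metabolism 46.

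In these 2 metabolic groups liver-only and shared peaks were about equally common, whereas amino acid and plasma protein genes had far more liver-only than shared ones. That difference between groups was not tested, because the lists were chosen with results known. Several counts fell by over 1.5 times when only the upper 50% of the liver list by score was used, as did that of all protein-coding genes, from 626 to 279. The amino acid list then had 8 genes with a liver-only peak, the plasma protein list 6, the liver factor list 3, the glucose list 2, the lipid list 7, the conjugating enzyme list 2, the solute carriers 7 and the zinc finger list 0.

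**Figure D4:**
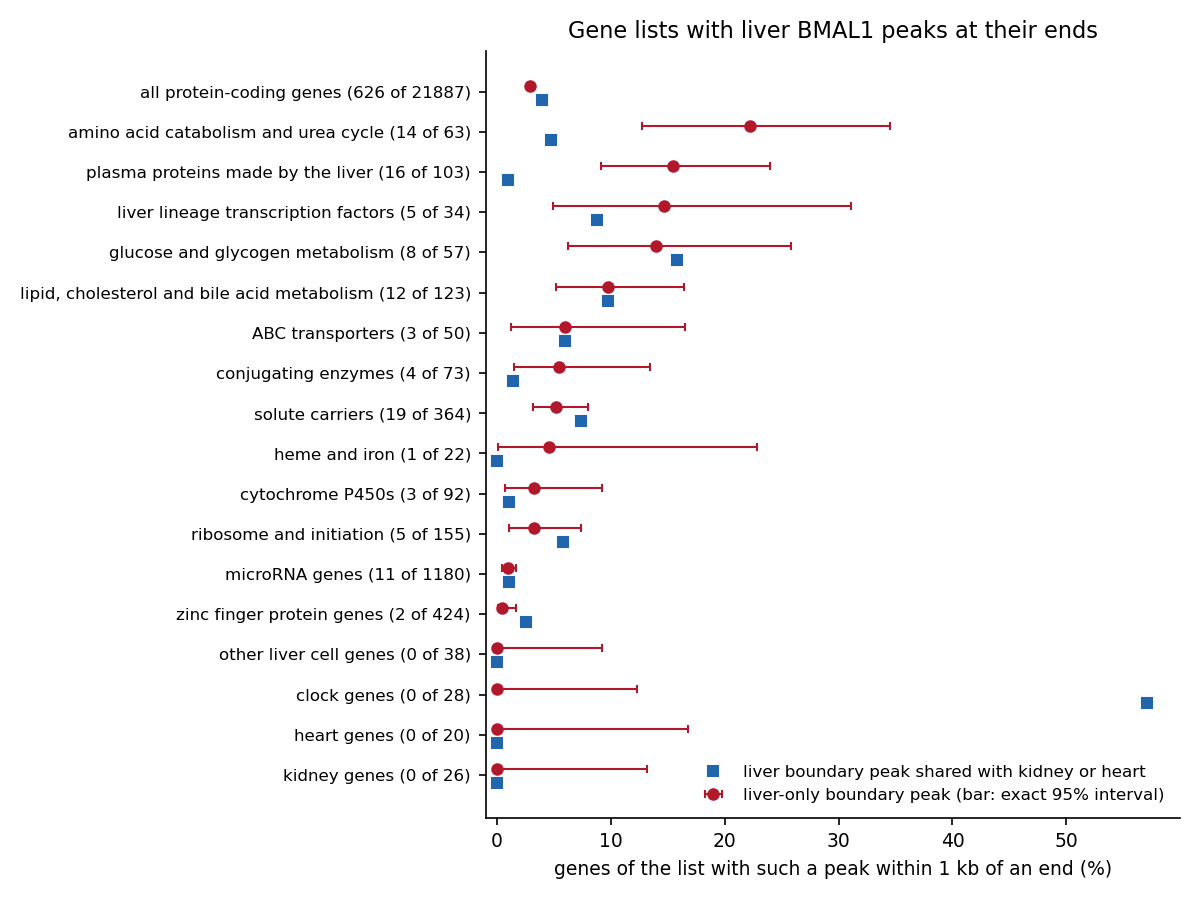
Percent of the genes of each list with a liver-only boundary peak (circles, with exact 95% intervals; counts beside the names) and with a liver boundary peak shared with kidney or heart (squares). Amino acid genes stand at 22.2% against 4.76% and plasma protein genes at 15.5% against 0.971%, while clock genes stand at 0 against 57.1%.

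Of 28 clock genes, 0 had a liver-only peak at an end (upper bound 12.3%, above the 2.86% of all protein-coding genes). A shared liver peak lay at 16 (57.1%), a kidney-only peak at 1 and a heart-only peak at 2. Among 92 cytochrome P450 genes 3 had a liver-only peak (3.26%), namely Cyp2w1 (68), Cyp4v3 (60) and the retinoic acid hydroxylase gene Cyp26a1 (27). Conjugating enzymes had 4 of 73 (5.48%), among them Gsto1 (46), Gnmt (37) and Gstp1 (34). The intervals of both groups included the share of all protein-coding genes.

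Solute carriers had a liver-only peak in 19 of 364 genes (5.22%, 3.17 to 8.03%) and a shared liver peak in 27. Kidney-only peaks were found at 19 of the 364 (5.22%) and heart-only peaks at 4. Slc7a2 led with 137. Slc25a51, the mitochondrial NAD carrier, scored 82, Slc35e1 64 and Slc25a47, a mitochondrial carrier of liver, 56. ABC family genes had 3 of 50 (6.00%, 1.25 to 16.5%), Abcf2 (113), the cholesterol exporter Abca1 (43) and Abcc10 (23). Shared liver peaks were found at 3 of the 50, kidney-only peaks at 4 and heart-only peaks at 2. The heme and iron list had 1 of 22 (4.55%, 0.115 to 22.8%), Fech (91), which encodes ferrochelatase, the last enzyme of heme synthesis. Shared liver peaks were found at 0 of the 22, kidney-only peaks at 2 and heart-only peaks at 0. The liver-only intervals of the ABC and heme lists included the 2.86% of all protein-coding genes.

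The zinc finger list lay below the share of all protein-coding genes, and the microRNA list below that of all genes. For shared liver, kidney-only and heart-only peaks both lists also lay below the same shares, so the direction was not particular to liver-only peaks. The shared and kidney-only values of the zinc finger list were nearer to those of all protein-coding genes, and no intervals were made for them. Zinc finger protein genes had 2 of 424 (0.472%, 0.0572 to 1.69%), Zfp317 and Zfp457. Shared liver peaks were found at 11 (2.59%), kidney-only peaks at 11 (2.59%) and heart-only peaks at 3 (0.708%). The same shares of all protein-coding genes were 3.93, 3.90 and 2.16%. The list of ribosomal proteins and initiation factors had 5 of 155 (3.23%, 1.06 to 7.37%), near the share of all protein-coding genes, Rps6ka5 (45), Eif3b (43), Eif4b (43), Eif4ebp1 (41) and Eif4ebp3 (26). Of these only Eif3b and Eif4b encode initiation factors, the first being a protein kinase and the last 2 inhibitors of eIF4E. MicroRNA genes had 11 of 1180 (0.932%, beside 1.73% of all genes), led by Mir6715 (111), Mir1938 (74), Mir8099-1 (66) and Mir7687 (64). Their shares with shared liver, kidney-only and heart-only peaks were 1.02, 1.27 and 0.508%. Of all genes, 2.17, 2.22 and 1.23% had such peaks. None of 26 kidney genes, 20 heart genes and 38 genes of Kupffer, endothelial, stellate and bile duct cells had a liver-only peak. The upper bounds were 13.2, 16.8 and 9.25%, all above the 2.86% of all protein-coding genes, so 0 could not be told from that share. No gene of these groups had any liver peak at an end. The lists measure binding, so the tissue labels could not be checked against expression.

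At least 2 liver-only peaks stood at 16 genes. With their highest score, these included Onecut1 (78), F10 (77, 3 peaks), the syndecan gene Sdc4 (64), the sterol carrier gene Stard4 (62) and F7 (59). Carhsp1, which encodes an RNA-binding phosphoprotein, also had 3 peaks, with a top score of 39. Sdc4 had a kidney peak and Carhsp1 a heart peak in the gene or within 10 kb.

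Most of the 709 peaks had no kidney or heart peak close by. The centre of one lay within 1 kb of 39 of the 709 peaks (5.50%), within 10 kb of 120 (16.9%) and within 50 kb of 346 (48.8%). Of the liver-only peaks away from boundaries, 1.73, 13.9 and 44.7% had one within these distances. The median distance was 52874 bp for the 709 peaks and 63907 bp for those away from boundaries. The closest were Gnl1, with a heart peak 225 bp away, Trim37, with a kidney peak at 228 bp and a heart peak at 234 bp, and Krr1, with a kidney peak at 233 bp. Peaks of 242 bp in liver and of 188 and 198 bp in kidney and heart no longer overlap at these distances, so such neighbours count as separate by the rule. Among the highest scores of the group were other close pairs. Odc1 had a kidney peak at 507 bp and a heart peak at 527 bp, and the peak of Clcn2 and Polr2h had them at 298 and 297 bp. At Mfsd1 the nearest kidney peak was 608807 bp away, and at Naaa the nearest heart peak was 138785 bp away.

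Another liver peak lay within 10 kb of 144 of the 709 (20.3%), and a liver peak shared with kidney or heart within 10 kb of 52 (7.33%). The nearest peak of kidney was at a median of 77296 bp and that of heart at 139847 bp. The heart list is the shorter one (2519 peaks against 4034 in kidney), and the part of list length in this difference was not tested.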

How the data were processed

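BMAL1 ChIP-seq and input libraries (18 in all) were grouped by tissue and by kind from their titles. Per the series' design text, each tissue has 1 deposited list of peaks, made by the authors from all its ChIP and input libraries, so no spread between animals, no pairing and no depth is available. The lists give positions and a whole-number score per peak. The authors deposited this score without its scale, and it was used only within a list, never between lists. Bowtie2, SAMtools, HOMER and the build mm10 are named in the submitters' processing notes, without their settings.

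Peaks were compared with Python 3.11.15, pandas 2.3.3 and SciPy 1.17.1. Sharing meant an overlap of 1 bp. Gene ends came from RefSeq GRCm38.p6 (49943 genes, 28030 with a known strand), and strand and sequence from 32851 RefSeq promoter windows of 300 bases. Intervals are exact Clopper-Pearson 95% intervals. The search was tested on simulated data. No test was run over peaks. The members and the gene lists were chosen with earlier results of these data known.

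The genes named are those of the 20 highest scores, the 4 highest per list, genes with several members, peaks with several E-boxes, the 3 peaks on each side of the 1 kb limit and the 3 nearest to a kidney or heart peak. Further list members are named to complete their groups and were chosen after their values were seen. A few genes that the rule selects are not reported here. Alternatives were other windows, overlap rules, score limits, gene classes and sequence windows, and the heart list left out.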

Additional observations from a re-analysis of the deposited data

How the results depend on the processing

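The pooled lists limit every value here, since differences between animals and read depth cannot be seen and weak sites missing from 1 list count as liver-only. With only the upper 50% of the liver list by score, 300 peaks met the rule, with a median score of 54.0, 88.6% nearest to a start and 21.7% with a kidney or heart peak within 10 kb. With the upper 50% of each list there were 346 peaks, with a median score of 54.0 and 87.9% nearest to a start. The start share was 89.0% with a 500 bp window, 78.0% with a 2 kb window and 88.2% with protein-coding genes only. The E-box share was 24.8% in the central 100 bases. The share of peaks near a kidney or heart peak was 11.1% within 5 kb and 48.8% within 50 kb. It was 12.1% when centres within 1000 bp counted as shared, a rule that itself removes the closest pairs. Leaving out the heart list was an alternative chosen after seeing the data. Then 13.9% of 772 peaks had a kidney peak within 10 kb, and heart peaks were not counted. The other 28 recomputed values of these 5 results moved by less than their intervals or, for the count, by less than 1.5 times. Of the gene list counts, 117 of 144 stayed within that limit. No paired analysis was possible because the lists are pooled over animals and carry no replicate, and for the same reason no library could be left out.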
